A study of Mus musculus with 120 samples.

Results

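The comparison described here is the cerebral cortex of 10-week-old 175QK772T mice against wild-type (WT) mice, taken from a larger brain RNA-sequencing series. Its members are the 8 cortex libraries of that age whose labels give these genotypes, 4 from 175QK772T mice and 4 from WT mice, of 120 libraries in all. All mice were on the C57BL/6J background. The 175QK772T mice are knock-in heterozygotes, Atxn1 175QK772T/2Q: 1 Atxn1 allele carries an expanded CAG tract together with a lysine-to-threonine change in ataxin-1's signal for entry into the nucleus, and the other is the mouse 2Q allele. The 175Q mice, used here for a direct comparison, are Atxn1 175Q/2Q and carry the expansion with the signal intact. The 175QK772T group held 3 females and 1 male, and the WT and 175Q groups held 2 females and 2 males each. Each library came from 1 mouse, and each mouse gave several brain regions, so the 10-week hippocampus and striatum values used below come from the same 12 mice, while the 26-week cortex values come from other mice sequenced in another batch. The design addresses which expression changes are present when the expanded protein carries a mutated localization signal. The p-values measure the spread between mice of these groups. Libraries were made from polyadenylated RNA of whole cortex tissue, and the count of Atxn1 pools both of its alleles.

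Ataxin-1 is a polyglutamine protein that shuttles between cytoplasm and nucleus and acts with the transcriptional repressor Capicua, and expansion of its glutamine tract causes spinocerebellar ataxia type 1. Its toxicity in cerebellar Purkinje cells is known to need entry into the nucleus, which a localization signal near the end of the protein directs. The cerebral cortex expresses ataxin-1 widely in neurons, and its excitatory layers, interneuron classes and glia each carry well-known marker genes, which are used below to group the changes.

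The 8 libraries held 78.9 to 101 M counts assigned to genes, and the WT libraries 84.3 to 88.2 M. The labelled tissue was checked with 4 cortical neuron genes. Slc17a7, the main cortical vesicular glutamate transporter, stood at 1130 to 1270 on the counts-per-million (CPM) scale in WT and 887 to 957 CPM in 175QK772T. Tbr1 (108 to 152 CPM), Gad1 (233 to 378 CPM) and Neurod6 (53.2 to 77.7 CPM) were likewise present in each of the 8 libraries. The library of 175QK772T replicate 4 stood apart in choroid plexus genes: their summed level was 1460 CPM there and 201 to 242 CPM in the other 3 replicates of its group. That library is also the only male of the 175QK772T group, so each value given without it is from females of that genotype. At 26 weeks the library labelled WT cortex replicate 1 went against its labelled tissue, with Slc17a7 at 269 CPM against 1070 to 1110 CPM and the myelin gene Mbp at 7110 CPM against 2420 to 2930 CPM in the other WT libraries. Results that rest on either library are therefore given with and without it. The first principal component of the 12 cortex libraries of 10 weeks, with 53.7% of the variance, separated WT (-25 to -20.6) from 175QK772T (7.11 to 8.88) and 175Q (11.9 to 17.4).

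Atxn1, the altered gene, lies at chr13:45549755-45965008 on the minus strand (GRCm38). Its level was 107, 105, 103 and 102 CPM in the 4 WT libraries and 123, 116, 119 and 123 CPM in the 4 175QK772T libraries. The groups did not overlap, which held for 27.7% of all genes tested. The log2 fold change was 0.20 ± 0.04 (± standard error, with adjusted p = 4.12e-04 in the edgeR quasi-likelihood test). The 175Q mean was 112 CPM, and 175QK772T and 175Q were not told apart (log2 difference 0.10 ± 0.04, adjusted p = 0.20 in the same edgeR fit). 

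Across the genome the 175QK772T cortex differed from WT in a large number of genes, most of them by a small amount. Of 20748 genes tested, 5364 (25.9%) passed an adjusted p of 0.05 in edgeR, 2458 higher (11.8%) and 2906 lower (14%) in 175QK772T. Of these, 179 were at least 2-fold higher, 412 were at least 2-fold lower, and 4133 differed by less than 1.5-fold. The balance differed between levels of expression. Of the genes under 1 CPM 186 were higher and 324 lower, from 1 to 10 CPM 449 and 596, from 10 to 100 CPM 1445 and 1211, and over 100 CPM 378 and 775. More genes were higher than lower in the range from 10 to 100 CPM alone of these 4. The share that passed was 9.1%, 21.8%, 33.3% and 48.4% in the same order. The median log2 fold change of all tested genes was 0.0032. For 5754 of the genes tested (27.7%) the 4 WT and 4 175QK772T CPM values did not overlap. Without 175QK772T replicate 4, 4162 genes passed, 3958 of them among the same genes and in the same direction. Among females alone 3176 passed, with 1299 higher and 1877 lower.

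**Figure D1:**
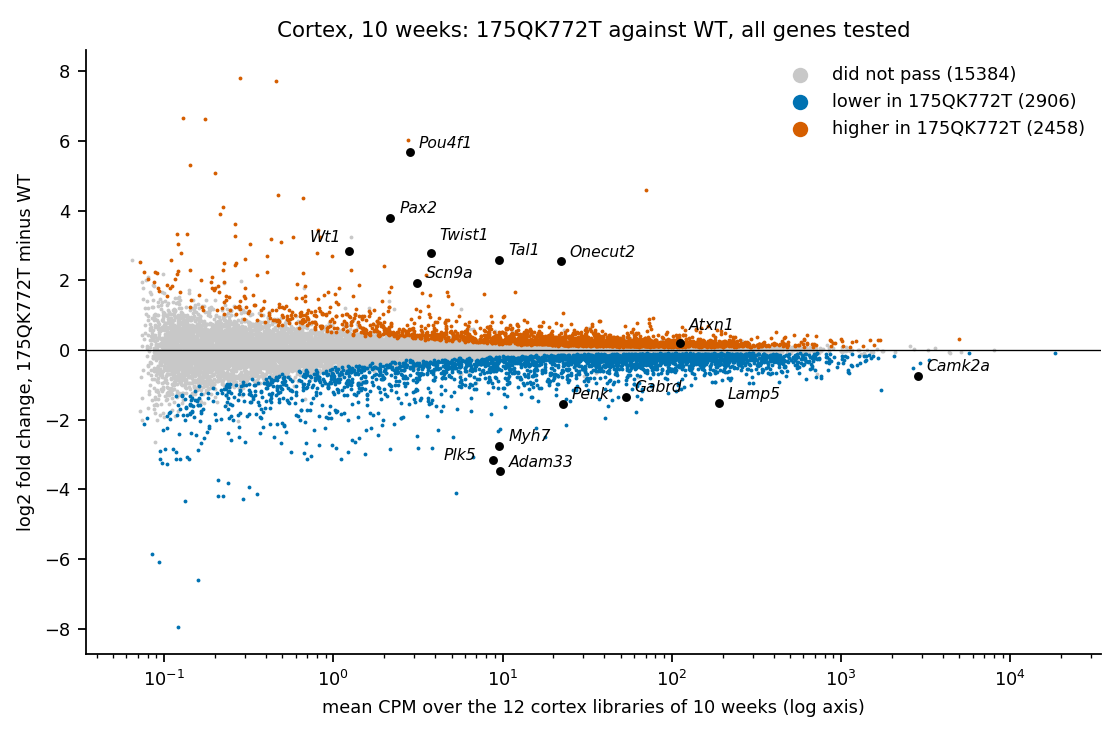
Log2 fold change of 175QK772T against WT in the 10-week cortex (vertical axis) against mean CPM over the 12 libraries (horizontal log axis), 1 point for each of 20748 tested genes, coloured by call. The labelled genes include Pou4f1 at 5.67 and Adam33 at -3.47, while most called genes lie close to 0.

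The promoters of the genes with the largest changes are shown next, because these genes carry the comparison: 3 of the largest rises and 3 of the largest falls, each the next in order of size with a promoter window within 300 bases of the counted gene start. They run from 250 bases before to 50 bases after the start that RefSeq gives (GRCm38.p6), 5′ to 3′ on the gene's own strand, with each CG dinucleotide in capitals.
Pou4f1, chr14:104467950-104468249, minus strand: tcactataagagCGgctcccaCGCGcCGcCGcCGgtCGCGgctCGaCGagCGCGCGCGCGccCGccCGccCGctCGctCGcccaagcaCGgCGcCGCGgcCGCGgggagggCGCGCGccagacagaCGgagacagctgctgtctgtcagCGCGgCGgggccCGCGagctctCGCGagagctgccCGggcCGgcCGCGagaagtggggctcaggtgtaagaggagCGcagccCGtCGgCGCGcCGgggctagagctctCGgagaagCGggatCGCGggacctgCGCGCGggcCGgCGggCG
Pax2, chr19:44755502-44755801, plus strand: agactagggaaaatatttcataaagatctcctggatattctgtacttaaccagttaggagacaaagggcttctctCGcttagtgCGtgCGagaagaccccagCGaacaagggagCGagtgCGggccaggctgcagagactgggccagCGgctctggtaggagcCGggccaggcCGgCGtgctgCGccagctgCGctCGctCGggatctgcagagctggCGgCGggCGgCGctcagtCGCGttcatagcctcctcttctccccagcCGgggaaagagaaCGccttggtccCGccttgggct
Twist1, chr12:33957421-33957720, plus strand: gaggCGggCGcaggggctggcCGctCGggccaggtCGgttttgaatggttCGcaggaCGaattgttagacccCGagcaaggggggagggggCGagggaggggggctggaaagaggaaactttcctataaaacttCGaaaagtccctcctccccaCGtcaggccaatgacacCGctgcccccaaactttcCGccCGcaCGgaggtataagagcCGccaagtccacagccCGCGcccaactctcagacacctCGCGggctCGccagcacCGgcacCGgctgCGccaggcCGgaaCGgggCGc
Plk5, chr10:80356209-80356508, plus strand: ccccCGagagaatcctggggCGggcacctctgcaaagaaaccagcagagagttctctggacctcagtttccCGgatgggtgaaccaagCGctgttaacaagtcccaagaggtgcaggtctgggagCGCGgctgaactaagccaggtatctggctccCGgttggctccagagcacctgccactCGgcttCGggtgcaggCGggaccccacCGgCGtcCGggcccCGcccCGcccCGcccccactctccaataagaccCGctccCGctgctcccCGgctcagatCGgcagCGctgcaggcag
Tspan11, chr6:127887372-127887671, plus strand: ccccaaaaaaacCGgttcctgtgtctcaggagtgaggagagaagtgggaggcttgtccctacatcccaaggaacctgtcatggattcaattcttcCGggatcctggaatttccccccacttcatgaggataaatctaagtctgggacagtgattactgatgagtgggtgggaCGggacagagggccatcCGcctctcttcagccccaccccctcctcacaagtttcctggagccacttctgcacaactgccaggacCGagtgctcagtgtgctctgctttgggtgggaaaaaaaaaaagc
Slc23a3, chr1:75133841-75134140, minus strand: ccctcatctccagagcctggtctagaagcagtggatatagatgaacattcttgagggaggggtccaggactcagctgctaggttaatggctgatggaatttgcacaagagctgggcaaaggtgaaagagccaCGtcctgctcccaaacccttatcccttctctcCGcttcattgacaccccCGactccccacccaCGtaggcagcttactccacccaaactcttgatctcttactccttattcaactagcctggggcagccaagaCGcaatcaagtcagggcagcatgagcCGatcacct
The letters CG occur 57 times in the Pou4f1 window, 23 times in that of Pax2 and 27 times in that of Twist1, against 21 in that of Plk5, 5 in that of Tspan11 and 6 in that of Slc23a3. Over the 32851 promoters of the RefSeq table the median was 7, with quartiles of 3 and 20. The 3 rising genes and Plk5 therefore lay above the third quartile, and the other two falling genes lay below the median. No comparison of called with other genes was made, since a promoter was matched for only 8 of the 12 largest rises (66.7%) and 8 of the 12 largest falls (66.7%), which voids it.

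Leading genes were taken as the 12 largest rises and 12 largest falls among genes that passed, averaged 1 CPM or more and had no overlap between the 4 WT and 4 175QK772T libraries, without predicted genes named only by a number. That left out Gm765, which fell by 4.10 on the log2 scale, and the called rises of Prl (6.02), Ttr (4.59), Clic6 (2.40) and mt-Atp8 (2.16), whose libraries overlapped; these 5 genes were picked out after their values were seen. Without 175QK772T replicate 4 the log2 fold change was 6.28 for Prl (adjusted p = 0.00815), 2.12 for Ttr (0.0222), 0.93 for Clic6 (0.272) and 0.92 for mt-Atp8 (0.23, edgeR). Of the 12 largest rises 6 were transcription factors of development, a grouping made after their values were seen. The share of such factors over all genes tested was not counted, so no enrichment can be read from the 6. The 1 CPM mean was taken over all 12 libraries, mutants included, so genes near 0 in WT could enter. Pou4f1, a POU-homeodomain factor of sensory and habenular neurons, was at 0.0245, 0.152, 0.0118 and 0.0479 CPM in WT and at 2.76, 3.88, 3.21 and 2.70 CPM in 175QK772T. Every 175QK772T library was above every WT library, which the rule required, with a log2 fold change of 5.67 ± 0.32 (adjusted p = 1.06e-09, edgeR). With WT near 0, Pou4f1 owed its test to the mutant libraries. The size of its fold is uncertain, at 5.3 to 7.4 on the log2 scale under the alternatives tried. Pax2, a paired-box factor of the midbrain-hindbrain boundary and kidney, stood at 0.282, 0.117, 0.0948 and 0.12 CPM in WT and 1.97, 2.32, 2.38 and 2.23 CPM in 175QK772T, a log2 fold change of 3.80 ± 0.23. WT replicate 1 was the highest of its group for Pax2, still well under the mutant range. Twist1, a basic helix-loop-helix (bHLH) factor of mesenchyme and neural crest, went from 0.747, 0.304, 0.557 and 0.575 CPM to 4.31, 3.78, 4.42 and 3.41 CPM (2.77 ± 0.16). Tal1, a bHLH factor of blood formation and of some midbrain and hindbrain neurons, went from 1.59, 1.79, 1.84 and 1.73 CPM to 11.2, 10.3, 13.1 and 9.38 CPM (2.58 ± 0.11). The 4 libraries of each group lay close together for Tal1. Onecut2, a homeobox factor, was the most abundant of these genes, at 4.68, 5.29, 4.44 and 5.38 CPM in WT and 28.5, 32.8, 29.7 and 25.5 CPM in 175QK772T (2.55 ± 0.09). Wt1, the zinc-finger factor of kidney and gonad development, was at 0.0711 to 0.276 CPM in WT and 1.33 to 1.77 CPM in 175QK772T (2.84 ± 0.32).

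The remaining rises among the 12 largest were of several kinds. Scn9a, which encodes the sodium channel Nav1.7 of sensory neurons, rose by a log2 fold change of 1.93 ± 0.16, from 0.809 to 1.13 CPM in WT to 3.37 to 4.30 CPM. Slc29a4, a plasma-membrane monoamine transporter, was at 4.18 to 5.33 CPM in WT and 14.2 to 17.2 CPM in 175QK772T (1.66 ± 0.08). Sfrp5, a secreted Wnt inhibitor, went from 0.438 to 0.599 CPM to 1.74 to 2.17 CPM (1.87 ± 0.16). Cidea, a lipid-droplet protein, rose by 1.68 ± 0.21 and Dnah14, an axonemal dynein heavy chain, by 1.67 ± 0.15 on the log2 scale. Sostdc1, an antagonist of bone morphogenetic protein (BMP) and Wnt signals that the choroid plexus also expresses, was at 0.24 to 0.468 CPM in WT and at 1.11, 1.19, 0.913 and 3.37 CPM in 175QK772T (2.31 ± 0.33). The highest value belonged to replicate 4, the library rich in choroid plexus genes, and without it the log2 fold change of Sostdc1 was 1.6 (adjusted p = 1.71e-04, edgeR).

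**Figure D2:**
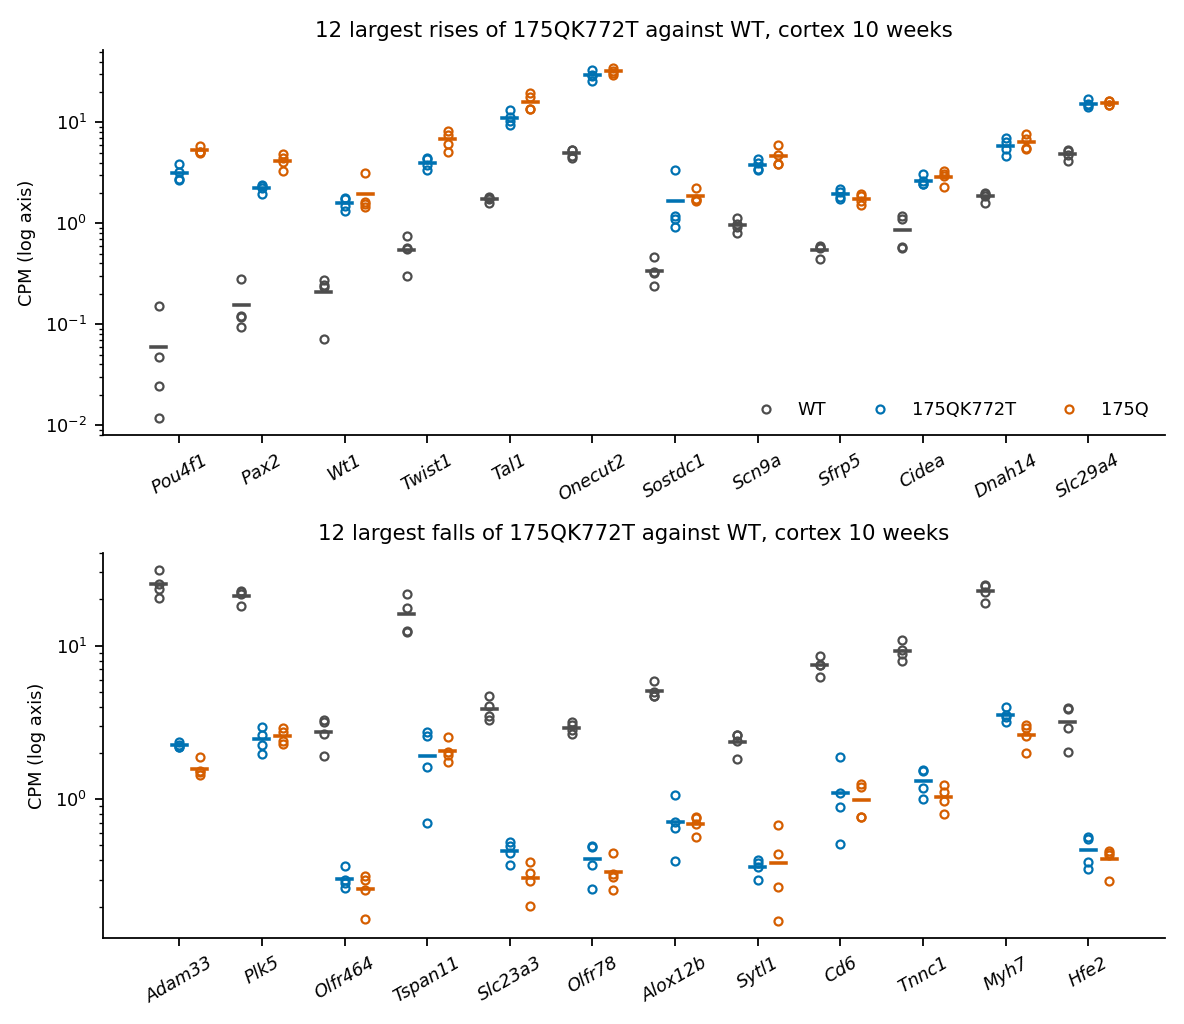
CPM (log axis) in each of the 4 WT, 4 175QK772T and 4 175Q cortex libraries of 10 weeks for the 12 largest rises (top) and the 12 largest falls (bottom), 1 circle per mouse with the group mean as a bar. WT and 175QK772T circles do not overlap for any of the 24 genes, which the rule that chose them required.

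The HOX genes, which set position along the body axis and are silent in the normal forebrain, gave few counts in any cortex, and were followed over all 39 genes of the family. Their summed count was 9, 17, 23 and 18 in the WT libraries and 127, 133, 252 and 132 in the 175QK772T libraries. The sums did not overlap, and 175Q libraries held 213, 277, 215 and 114. In relative terms the HOX sum was 0.11 to 0.272 CPM in WT and 1.3 to 2.77 CPM in 175QK772T. No count was found in any WT library for 29 of the 39 genes, and 15 of those had counts in 175QK772T while 14 had none in either genotype. Hoxc4 had 0 counts in WT and 133 in 175QK772T, at least 40.9-fold higher when WT is set to 3 counts over the group. Hoxb5 had 0 and 53 counts, at least 16.3-fold higher on the same floor. Only 4 HOX genes (Hoxc4, Hoxb5, Hoxa7 and Hoxc6) had enough counts to be tested, which they owed to the mutant libraries.

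The other families of developmental transcription factors moved gene by gene; over all genes tested 25.9% passed, 11.8% higher and 14% lower. Of 12 LIM homeobox genes 5 were tested, 2 of which rose and 1 fell. Lhx4, a factor of motor neurons and pituitary, rose from 0 to 0.036 CPM in WT to 0.411 to 0.737 CPM in 175QK772T (log2 fold change 4.45 ± 0.43). With WT near 0, Lhx4 owed its test to the mutant libraries and could only be called higher. The size of its fold is uncertain, at 3.94 to 5.63 on the log2 scale under the alternatives tried. Lhx6, a factor of interneurons from the medial ganglionic eminence, fell by 0.28 ± 0.05 on the log2 scale, and Lhx9 was the other member that rose. Among 15 POU genes 11 were tested, with 3 higher and 2 lower; beside Pou4f1, the neuronal Pou3f2 rose by 0.30 ± 0.06, and Pou2f2 fell by 0.63 ± 0.07 on the log2 scale. Of 13 bHLH factors of the TWIST, HAND and TAL group 9 were tested; Twist1, Tal1 and the very low Ferd3l rose, and Scx, a factor of tendon, fell from 1.53 to 2.04 CPM to 0.373 to 0.649 CPM. Of 9 PAX genes 4 were tested and 2 rose, Pax2 and Pax1, of which 1 passed without 175QK772T replicate 4. The T-box genes Tbr1 and Tbx22 fell, and none of the 11 tested members of that family rose. Gata2, the 1 GATA gene tested, was at 3.63 to 4.61 CPM in WT and 3.91 to 4.54 CPM in 175QK772T. Some calls of low genes were lost when 1 library was left out, with folds of the same direction. Pax1, at a log2 fold change of 1.42, lost its call without WT replicate 4 or 175QK772T replicate 2, 3 or 4 (1.15 to 1.47, adjusted p from 0.0597 to 0.0892, edgeR). Ferd3l, at 2.23, lost it without WT replicate 2, 3 or 4 or 175QK772T replicate 3 or 4 (1.81 to 2.24, adjusted p from 0.0652 to 0.096). Lhx9, at 0.97, lost it without WT replicate 3 or 4 or 175QK772T replicate 1 (0.77 to 0.99, adjusted p from 0.0541 to 0.0577). Tbx22, at -1.96, lost it without WT replicate 3 (-1.69, adjusted p = 0.0701) or 175QK772T replicate 4 (-1.52, 0.0896).

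The largest falls were of another kind, with enzymes, muscle-type proteins and membrane receptors. Adam33, a membrane-anchored metalloprotease, was at 25.2, 20.5, 23.4 and 30.9 CPM in WT and 2.27, 2.19, 2.2 and 2.35 CPM in 175QK772T, a log2 fold change of -3.47 ± 0.12 (adjusted p = 4.84e-12, edgeR). The mutant libraries were nearly equal to each other and lay about an order of magnitude under WT. Plk5, of the polo-like kinase family, went from 22.3, 18, 21.7 and 22.6 CPM to 2.96, 1.98, 2.61 and 2.27 CPM (-3.15 ± 0.11). Myh7, the slow and cardiac myosin heavy chain, went from 24.7, 22.4, 24.4 and 19 CPM to 3.96, 3.41, 3.55 and 3.17 CPM (-2.75 ± 0.09). Tnnc1, the troponin C of slow and cardiac muscle, was at 7.92 to 10.8 CPM in WT and 1.01 to 1.55 CPM in 175QK772T (-2.81 ± 0.16). Both muscle-type genes fell without overlap between groups, which the rule that chose them required. Tspan11, a tetraspanin, was at 21.6, 12.4, 12.3 and 17.5 CPM in WT and at 1.62, 0.698, 2.74 and 2.59 CPM in 175QK772T (-3.07 ± 0.29). Its libraries varied more within each group than those of Adam33, and the groups were still far apart. The other falls among the 12 largest, from -3.13 to -2.63 on the log2 scale, were the olfactory receptor genes Olfr464 and Olfr78, Slc23a3 of the ascorbate transporter family, the lipoxygenase Alox12b, the synaptotagmin-like Sytl1, the lymphocyte receptor Cd6 and Hfe2, which encodes hemojuvelin, a BMP co-receptor.

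Marker genes of upper-layer excitatory neurons were mostly lower. All 12 upper-layer genes passed the test, 11 lower and 1 higher. Their median log2 fold change was -0.55 beside 0.0032 over all genes tested, of which 25.9% passed and 14% were lower. The share that passed grew with expression: from 10 to 100 CPM 1211 of 7970 genes were lower, and over 100 CPM 775 of 2380. The list was not compared with genes of like expression. Lamp5, a lysosome-associated membrane protein of upper-layer and neurogliaform cells, was at 379, 351, 301 and 368 CPM in WT and 103, 113, 122 and 138 CPM in 175QK772T (-1.52 ± 0.07). No mutant library reached the lowest WT level. Rspo1, an enhancer of Wnt signalling, went from 19.5 to 24.7 CPM to 4.05 to 4.71 CPM (-2.31 ± 0.09), and Stard8, a GTPase-activating protein, from 58.2 to 70.2 CPM to 23.2 to 27.1 CPM (-1.39 ± 0.06). Mdga1 was the member that rose. In bulk tissue fewer cells of a type and less RNA per cell cannot be told apart.

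Markers shared by excitatory neurons were also mostly lower. Of 12 such genes 7 fell and 2 rose, with a median of -0.33, against 14% lower and 11.8% higher over all genes tested. Of 2380 genes over 100 CPM 775 were lower and 378 higher, and the list was not compared with genes of like expression. Camk2a, the alpha subunit of calcium/calmodulin-dependent kinase II, fell from 3880 to 4080 CPM to 2320 to 2470 CPM, a log2 fold change of -0.74 ± 0.03. Lingo1, a neuronal membrane protein, fell by 0.94 ± 0.04 and Nrgn, the calmodulin-binding neurogranin, by 0.65 ± 0.05 on the log2 scale. The 14 deep-layer genes were divided, with 7 lower, 3 higher and a median of -0.17. The neurotensin receptor Ntsr1, a marker of layer 6 neurons, rose from 7.32 to 9.65 CPM to 13.9 to 16.7 CPM (0.86 ± 0.09), while the connective tissue growth factor Ccn2 and the complexin Cplx3, both genes of the deepest layer, fell by 0.67 ± 0.05 and 0.74 ± 0.10 on the log2 scale.

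Interneuron genes were lower as well. Of 18 genes of GABAergic interneurons 12 fell and 1 rose (Dlx2), with a median of -0.41, again beside 14% lower over all genes tested. This list and the peptide list below were not compared with genes of like expression. Gad1, which makes GABA from glutamate, was at 378, 365, 356 and 375 CPM in WT and 233, 246, 248 and 269 CPM in 175QK772T (-0.55 ± 0.04). Vip, a peptide of disinhibitory interneurons, fell from 39.6 to 51.6 CPM to 22 to 27.3 CPM (-0.89 ± 0.09). Among 18 neuropeptide genes, several of which are also interneuron markers, 14 fell and 1 rose (Nts), with a median of -0.51. Npy was at 79.7, 87.8, 82.3 and 85.2 CPM in WT and at 41.2, 42.1, 41.7 and 42 CPM in 175QK772T (-0.98 ± 0.05). The opioid precursors Penk and Pdyn fell by 1.54 ± 0.08 and 1.34 ± 0.08 and the stress peptide Crh by 1.27 ± 0.12 on the log2 scale. These peptide genes had no overlap between WT and 175QK772T libraries, which held for 27.7% of all genes tested.

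Some of these genes are also markers of tissue next to the cortex. The summed level of 14 genes of striatal neurons, Penk, Pdyn and the dopamine-signalling regulator Ppp1r1b among them, was 387 to 465 CPM in WT and 323 to 359 CPM in 175QK772T (exact permutation test, two-sided p = 0.0286, adjusted p = 0.129 over 9 measures). That of 12 genes of hippocampal neurons was 372 to 415 CPM and 317 to 330 CPM (exact permutation p = 0.0286, adjusted p = 0.129). Both sums were lower in each 175QK772T library than in any WT library. With 4 against 4 libraries 0.0286 is the smallest p the test allows, and 6 of the 9 measures would have to reach it before any adjusted p fell under 0.05; 2 did, so the adjusted values say nothing for or against a difference. Of the 13 striatal genes tested 3 fell and 1 rose, and of the 12 hippocampal genes 5 fell and 1 rose, while 9 striatal and 6 hippocampal genes did not pass. The thalamic sum was 183 to 201 CPM in WT and 161 to 192 CPM in 175QK772T (exact permutation p = 0.143). The part of neighbouring tissue in the peptide and marker results was not tested.

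Among receptor genes of neurons more members fell than rose. Over all genes tested 25.9% passed and 14% were lower, and among genes over 100 CPM 48.4% passed. Of 22 glutamate receptor genes 13 fell and 2 rose, with a median of -0.22. Grm2, a presynaptic metabotropic receptor, went from 61.5 to 70.7 CPM to 29.3 to 31.8 CPM (-1.11 ± 0.04), and the NMDA receptor subunit gene Grin2a fell by 0.63 ± 0.05 on the log2 scale. Of 14 GABA receptor genes 7 fell and 3 rose, with a median of -0.11. Gabrd, the subunit of extrasynaptic receptors that carry tonic inhibition, was at 92.7, 88.8, 91.9 and 101 CPM in WT and 35.3, 36.3, 39.6 and 35.4 CPM in 175QK772T (-1.34 ± 0.06). Gabrg1, another subunit of GABA-A receptors, rose by 0.29 ± 0.05.

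Counts for the voltage-gated channels are given by class, and differences between classes were not tested. Over all genes tested 14% were lower and 11.8% higher, and the classes were not compared with genes of like expression. Of 23 potassium channel genes 14 fell and 2 rose, with a median of -0.21. Kcnh3, an ether-a-go-go type channel of the forebrain, fell by 0.68 ± 0.03 and Kcnc1, a channel of fast-spiking neurons, by 0.64 ± 0.04 on the log2 scale. Of 15 calcium channel genes 7 fell and 1 rose, with a median of -0.20, and Cacna1i, a low-threshold channel, fell by 0.55 ± 0.05. Of 9 sodium channel genes 4 were higher and 4 lower. Scn4b, an auxiliary beta subunit, was at 128, 115, 107 and 147 CPM in WT and at 28, 36.7, 39.7 and 34.6 CPM in 175QK772T (-1.79 ± 0.13), while Scn3a, the channel typical of the fetal brain, rose from 44.2 to 47.6 CPM to 59.3 to 69.7 CPM (0.50 ± 0.06). Scn4b and Scn3a thus changed in opposite directions, each without overlap between groups, which held for 27.7% of all genes tested.

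**Figure D3:**
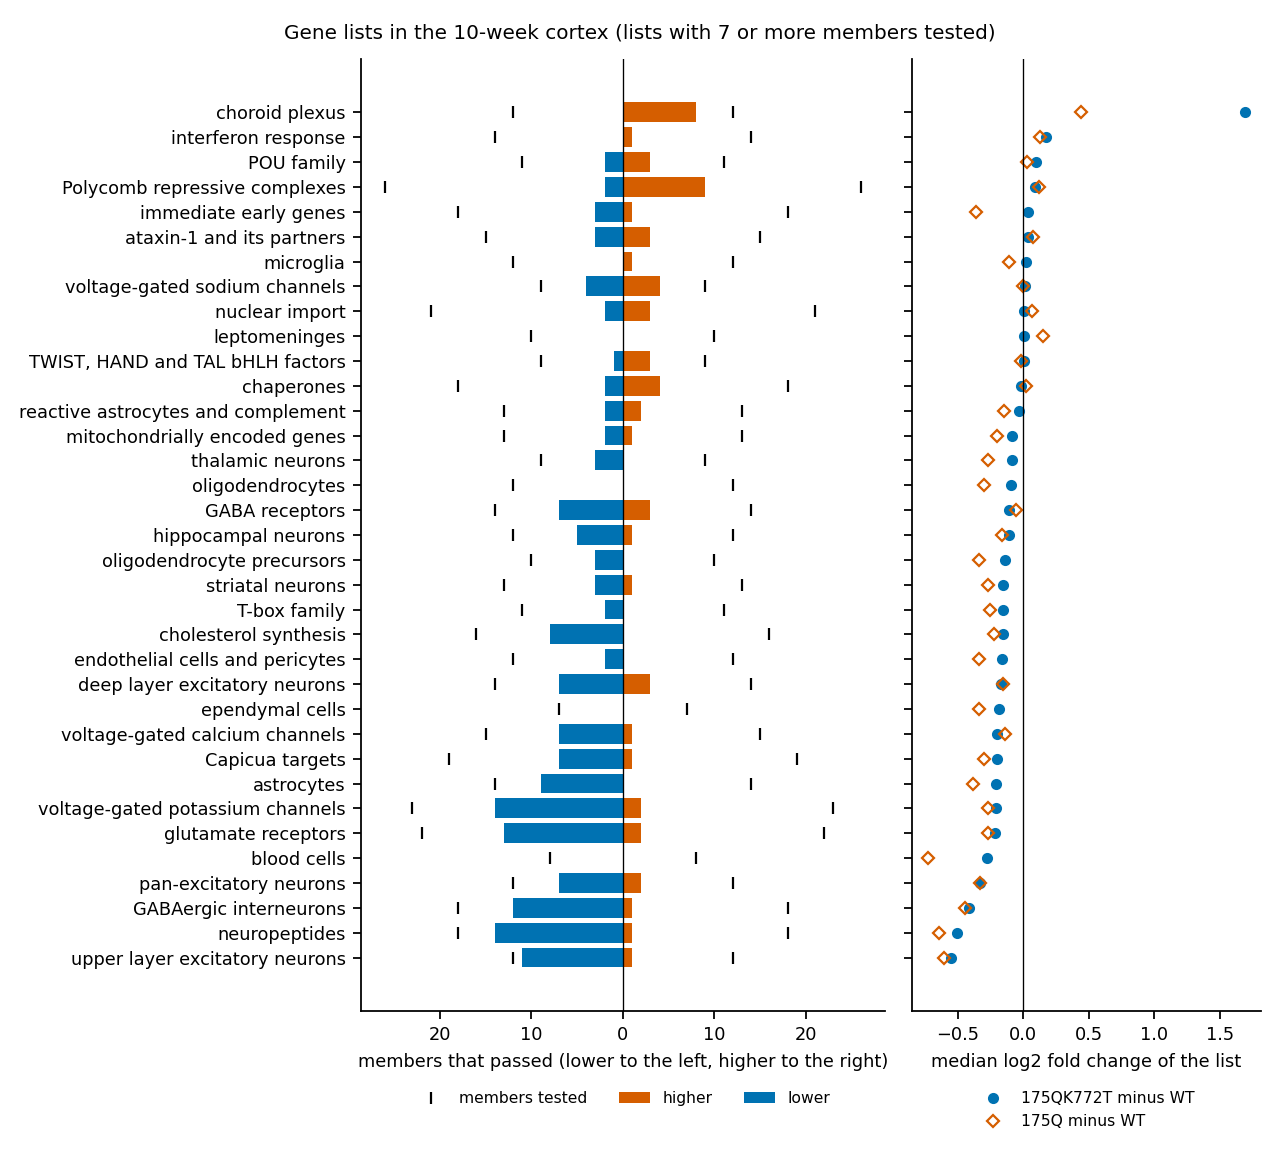
Left: the number of members of each gene list that passed against WT in the 10-week cortex, lower to the left and higher to the right, with ticks at the number tested. Right: each list's median log2 fold change against WT in 175QK772T (filled circles) and 175Q (open diamonds); upper-layer genes (-0.55), neuropeptides (-0.51) and interneuron genes (-0.41) have the lowest 175QK772T medians, and the choroid plexus list (1.69) rests on 1 library.

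Glial genes showed small changes, and their counts stand beside 25.9% passing over all genes tested, 14% lower. Among genes over 100 CPM 48.4% passed, and the glial lists were not compared with genes of like expression. Of 14 astrocyte genes 9 fell and none rose, with a median of -0.21 and values down to -0.29. Slc1a2, the main glutamate transporter of astrocytes, was at 3830 to 4100 CPM in WT and 3060 to 3460 CPM in 175QK772T (-0.29 ± 0.04), and Glul, the glutamine synthetase, fell by 0.28 ± 0.03. No oligodendrocyte gene of 12 passed, with a median of -0.098 and Cnp at 256 to 339 CPM in WT and 242 to 328 CPM in 175QK772T. Of 10 genes of oligodendrocyte precursors 3 fell, the lineage factors Olig1 and Olig2 and the gene Neu4. The call of Neu4 was lost without WT replicate 2 or 3 or any 1 of the 175QK772T libraries (adjusted p from 0.0522 to 0.145, edgeR). In microglia 1 gene of 12 passed, the protease Ctss, which rose by 0.16 ± 0.05. Among reactive and complement genes Serpina3n, an acute-phase serine protease inhibitor, rose from 6.97 to 9.54 CPM to 12.5 to 13.7 CPM (0.67 ± 0.09) and the complement gene C4b by 0.45 ± 0.12, while Cd44 and Clu fell. Of 14 interferon-response genes 1 passed, Ifi27l2a, which rose. Of 12 endothelial and pericyte genes Kcnj8 and Kdr fell, and neither passed without 175QK772T replicate 4. Kcnj8 was then at -0.38 against -0.41 with all libraries (adjusted p = 0.0658), and Kdr at -0.12 against -0.30 (0.355, edgeR). Kdr was also lost without WT replicate 1, 2 or 4 or 175QK772T replicate 1 (-0.31 to -0.25, adjusted p from 0.0695 to 0.111). Several other small calls were lost when 1 library was left out, with the direction unchanged. C4b was lost without WT replicate 3 (0.34, adjusted p = 0.0524), and Ifi27l2a, at 1.45, without WT replicate 1 or 3 or 175QK772T replicate 1 (1.01 to 1.41, adjusted p from 0.0676 to 0.0789). Ctss was lost without any 1 WT or 175QK772T library other than WT replicate 2 or 175QK772T replicate 3, Cd44 was lost without WT replicate 1 or 4 or 175QK772T replicate 2, and Clu was lost without WT replicate 3 or 4 or 175QK772T replicate 1, 3 or 4, with adjusted p up to 0.0892, 0.0916 and 0.16. In those settings Ctss ran from 0.14 to 0.18, Cd44 from -0.50 to -0.43 and Clu from -0.11 to -0.07.

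Most of the calls among choroid plexus genes rested on 1 library. Of 12 genes 8 were called higher with all libraries. Ttr, the transthyretin of choroid plexus epithelium, was at 3.11, 14.3, 2.06 and 1.85 CPM in WT and at 6.92, 5.32, 20.5 and 749 CPM in 175QK772T, so that all but replicate 4 lay near the WT range. Without that replicate 3 of the 12 genes passed, 2 higher and 1 lower. Ttr was still higher (log2 fold change 2.12, adjusted p = 0.0222, edgeR). The summed level, of which Ttr then made up little, was lower than in WT, at 201 to 242 CPM against 266 to 291 CPM. Its exact permutation test gave a two-sided p of 0.0286, the smallest that 3 against 4 libraries allow, and an adjusted p of 0.103 over 9 measures. The sum and its called members thus did not share 1 direction. The marker lists of ependymal cells, leptomeninges and blood cells held no called gene, and for blood cells 3 genes passed without replicate 4.

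The Polycomb complexes keep developmental regulators such as the HOX genes silent. Of 26 of their genes 9 rose, 2 fell and 15 did not pass, with a median of 0.086. Cbx8, a chromobox subunit, rose by 0.54 ± 0.08 and Rnf2, a ubiquitin ligase of the complex, by 0.39 ± 0.06, and Cbx6 fell by 0.23 ± 0.03 on the log2 scale. Over all genes tested 25.9% passed, more of them lower than higher. From 10 to 100 CPM, though, 1445 were higher and 1211 lower. The list was not compared with genes of like expression.

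Genes tied to ataxin-1 itself moved by small amounts. Of 15 genes for ataxin-1 and its binding partners 3 rose (Atxn1, the histone deacetylase Hdac3 and Heyl) and 3 fell, among them Rora and the Notch effector Rbpj, with a median of 0.032. Of 19 reported targets of Capicua 7 fell and 1 rose, with a median of -0.20. Etv5, an ETS factor, was at 119 to 138 CPM in WT and 98.9 to 117 CPM in 175QK772T (-0.32 ± 0.05), Spred1, an inhibitor of Ras signalling, fell by 0.27 ± 0.04, and Vgf, which is also on the peptide list, fell by 0.50 ± 0.06. The cell-cycle gene Ccnd2 was the target that rose, by 0.31 ± 0.05. Among 21 tested genes of nuclear import 3 rose and 2 fell, with log2 fold changes from -0.17 to 0.20, a share near the 25.9% over all genes tested. The calls of the import receptor genes Ipo13 and Ipo9 were among those lost without WT replicate 1 (adjusted p = 0.0644 and 0.0791, edgeR), and Ipo13 was also lost without WT replicate 3 (0.06) and Ipo9 without 175QK772T replicate 3 (0.0532). The call of Rora was lost without WT replicate 1 or 4 or 175QK772T replicate 1 or 2 (adjusted p from 0.0738 to 0.146, edgeR), and that of Hdac3 without WT replicate 1 (0.0603) or 175QK772T replicate 4 (0.0868).

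Further cellular programmes were checked. Of 18 chaperone genes 4 rose and 2 fell, and 12 did not pass, beside 25.9% passing over all genes tested. Hsp90ab1, a cytosolic chaperone, was at 1220 to 1290 CPM in WT and 1490 to 1560 CPM in 175QK772T (0.29 ± 0.03), and Hspa8, the constitutive heat-shock cognate protein, rose by 0.28 ± 0.04. The inducible Hspa1b fell by 1.15 ± 0.15, but it has a near-identical copy, Hspa1a, so how reads were divided between them is uncertain. Of 16 genes of cholesterol synthesis 8 fell and none rose, with a median of -0.16. Srebf2, the master regulator of that pathway, fell by 0.22 ± 0.04. Of 18 immediate early genes 3 fell and 1 rose (Jun): the activity-dependent factor gene Egr3 was at 153 to 216 CPM in WT and 106 to 121 CPM in 175QK772T (-0.80 ± 0.12), and the neurotrophin gene Bdnf fell by 0.72 ± 0.08. Of 13 mitochondrially encoded genes 3 passed, mt-Atp8 higher and mt-Co1 and mt-Nd1 lower, and none did without 175QK772T replicate 4. The small falls of mt-Co1 and mt-Nd1 were also lost without WT replicate 3 or 4 or 175QK772T replicate 1. In those settings they ran from -0.0905 to -0.0651 (adjusted p from 0.0527 to 0.137, edgeR). The call of mt-Nd1 was lost without WT replicate 1 or 175QK772T replicate 3 as well.

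Setting 175QK772T directly against 175Q showed few differences. Of 20748 genes 217 (1.05%) passed in the same edgeR fit, 157 higher and 60 lower in 175QK772T, and 3098 had an unadjusted p under 0.05. This count depended on the libraries: it was 34 without 175Q replicate 1, 53 without 175Q replicate 2, 109 without 175Q replicate 4, and 121, 92 and 72 without 175QK772T replicates 1, 2 and 3. Both comparisons with WT share the WT libraries, so values are given side by side. En2, a homeobox factor of the midbrain-hindbrain boundary, had means of 0.653 CPM in WT, 1.36 CPM in 175QK772T and 2.91 CPM in 175Q, and the direct log2 difference was -1.09 ± 0.15 (adjusted p = 0.00487, edgeR). Pax2, Twist1 and Tal1 were also lower in 175QK772T than in 175Q, by 0.96 ± 0.17, 0.86 ± 0.13 and 0.61 ± 0.09 on the log2 scale, and stayed well over WT. For Tal1 the means were 1.74 CPM in WT, 11 CPM in 175QK772T and 16 CPM in 175Q.

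Among genes lower than WT in both mutants, some were less low in 175QK772T. Slc1a2 had log2 fold changes against WT of -0.29 in 175QK772T and -0.57 in 175Q, and the direct difference of 0.28 passed (adjusted p = 0.00305, edgeR). Of the 14 astrocyte genes 8 were higher in 175QK772T than in 175Q, and none were lower. Over all genes tested 0.757% were higher and 0.289% lower. The count of astrocyte genes was 2 without 175Q replicate 1 or 2 and 4 without 175QK772T replicate 3 or 4. Grm2 had -1.11 and -1.48 (direct difference 0.36, adjusted p = 0.00305, edgeR), and Camk2a had -0.74 and -0.91 (0.17, adjusted p = 0.0083). Ntn5, of the netrin family, had -1.76 and -2.43, with a direct difference of 0.67 (adjusted p = 0.0127, edgeR) that was lost without 175Q replicate 2 (0.0597). The Wnt ligand gene Wnt2b had -1.82 and -2.67, and its direct difference of 0.84 (0.0297) was lost without 175Q replicate 1 or 2 or 175QK772T replicate 2 or 3 (0.0723 to 0.0992). The direct difference of Pax2 was likewise lost without 175Q replicate 1 (0.0634) or 2 (0.0723). The haemoglobin gene Hbb-bs, a marker of blood in the tissue, was also higher in 175QK772T than in 175Q: it was at 64.8 to 75.6 CPM in 175QK772T, at 67.0 to 93.5 CPM in WT and at a mean of 45.1 CPM in 175Q, and its part in the other direct differences was not tested. For 21 of the 24 largest changes no direct difference was detected, among them Adam33 (0.51 ± 0.13, adjusted p = 0.0764), Pou4f1 (-0.76 ± 0.19, adjusted p = 0.0642) and Onecut2 (-0.14 ± 0.08, adjusted p = 0.43, edgeR). The others of the 24, Pax2, Twist1 and Tal1, passed, which is a larger share than the 1.05% over all genes tested.

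The same genotypes at 26 weeks, from other mice, kept most of the directions seen at 10 weeks. With all libraries 1756 of 19888 genes (8.83%) passed at 26 weeks, and without the library labelled WT replicate 1 4641 of 20239 (22.9%) did. Leaving out any 1 of the 175QK772T libraries of that age gave 930 to 1039. Of the 2427 genes higher at 10 weeks and tested at 26 weeks, 2166 (89.2%) had the same direction, and of 2806 lower genes 2622 (93.4%) did. Without WT replicate 1 these shares were 96.2% and 96.9%. Over all genes tested at both ages 48% were higher at 26 weeks (50.6% without that library). With all libraries 614 of the genes called higher at 10 weeks (25.3%) and 751 of those called lower (26.8%) were called the same way at 26 weeks, against 4% and 4.91% called higher and lower over all genes tested at both ages. Those are 78.5% of the 782 genes called higher at 26 weeks and 78.3% of the 959 called lower. Without WT replicate 1, 1320 of the genes called higher at 10 weeks (54.3%) were called higher again, which is 66.9% of the 1972 called higher at 26 weeks. For lower genes the number was 1897 (67.1%), which is 72.7% of 2610, and over all genes 9.98% were called higher and 13.2% lower in that setting.

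Among the leading genes the 26-week values differed in how far they rested on that WT library. Pou4f1 had a log2 fold change of 2.2 (adjusted p = 0.28) with all libraries and 7.94 (adjusted p = 2.91e-14) without WT replicate 1, which held 14.2 CPM against 0.0574 CPM or less in the other WT libraries (edgeR). Pax2 went likewise from 1.77 to 5.34. Twist1 (4.26 either way), Tal1 (3.71 and 3.94), Onecut2 (3.24 and 3.26) and Adam33 (-2.36 and -2.55) rested little on it. A direct test of 10 weeks minus 26 weeks passed for 12 of 21678 genes (0.0554%), all with negative differences, and 1569 had an unadjusted p under 0.05. As single libraries were left out this count ran from 1 to 30, with 30 when the 26-week library labelled WT replicate 1 was left out. Tal1 and Twist1 were among them: their rise was smaller at 10 weeks than at 26 weeks by 1.14 and 1.49 on the log2 scale. Rflnb, a filamin-binding protein gene, fell by 1.62 at 10 weeks and 0.94 at 26 weeks on the log2 scale. The differences of Tal1, Twist1 and Rflnb were each lost without most single libraries, with adjusted p up to 0.069, 0.104 and 0.146 (edgeR). Age and sequencing batch cannot be told apart in this comparison.

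**Figure D4:**
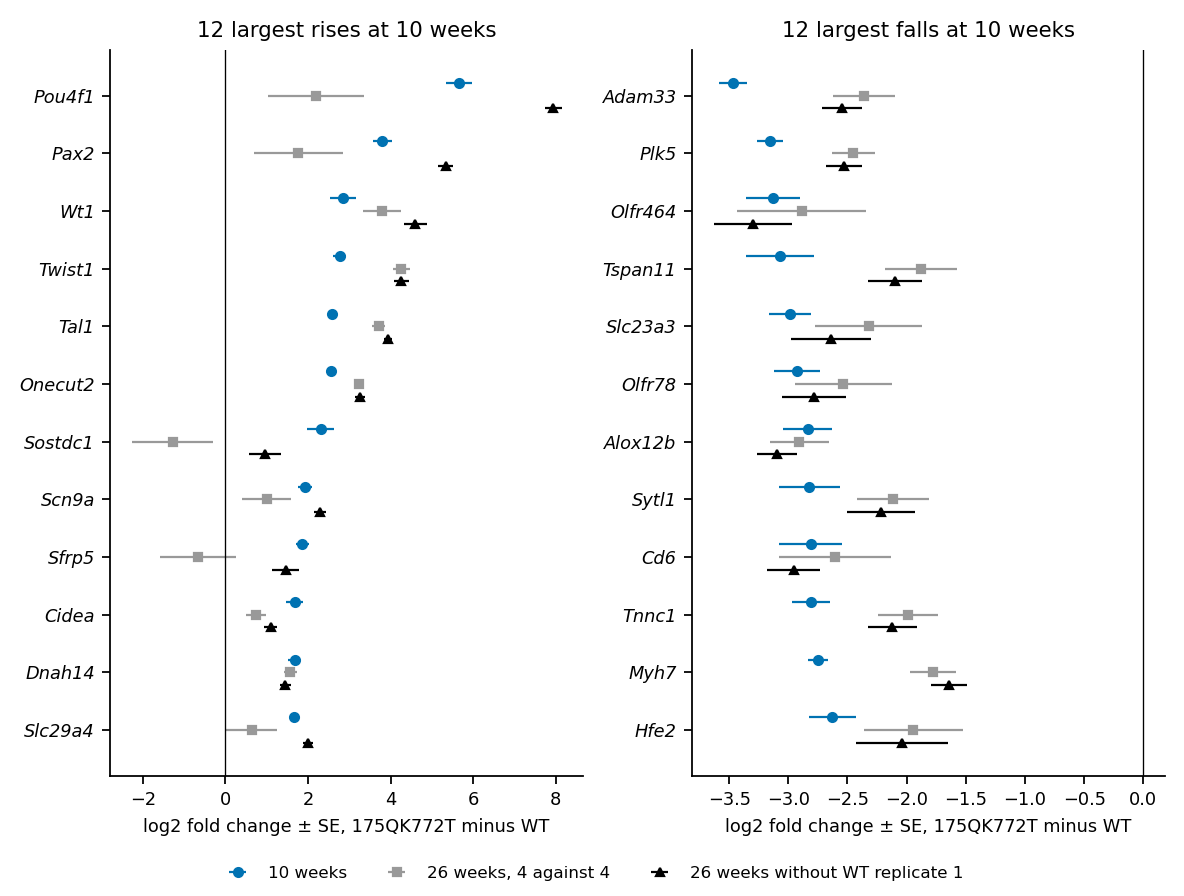
Log2 fold change of 175QK772T against WT with its standard error (horizontal axis) for the 12 largest rises and 12 largest falls in the cortex, at 10 weeks (circles), at 26 weeks with all libraries (squares) and at 26 weeks without the library labelled WT replicate 1 (triangles). Twist1 and Adam33 have like 26-week values in both settings, and Pou4f1 moves from 2.2 to 7.94.

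In the same 12 mice, the effect in cortex differed from that in other forebrain regions for a part of the genes. The difference between cortex and hippocampus passed for 974 of 22731 genes (4.28%), and that between cortex and striatum for 2235 (9.83%). The first of these counts was 616 without 175QK772T replicate 1 and 632 without replicate 2. Adam33 had a log2 fold change of -3.47 in cortex, -0.61 in hippocampus and 0.28 in striatum. Tspan11 had -3.07, 0.06 and -0.07, and both genes passed against each region. Onecut2 rose by 2.55 in cortex against 1.19 in hippocampus and 0.96 in striatum, and Tal1 by 2.58 against 1.65 and 0.31. For Rem2, a small GTPase that acts on calcium channels, the values were 1.30, 0.02 and -0.46. Lamp5 fell by 1.52 in cortex against 0.80 in hippocampus and 0.04 in striatum, and both differences passed. These genes had their larger effect in cortex in both comparisons.

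Other genes differed from 1 region alone, had no detected difference or had their larger effect elsewhere. Wt1 had 2.84 in cortex, 4.71 in hippocampus and 7.02 in striatum, and its difference from striatum passed (-4.10). Pou4f1 and Pax2 rose in all 3 regions, and no difference between cortex and hippocampus was detected for either (adjusted p = 0.835 and 0.894, edgeR with mouse as a block). Against striatum the rise of Pou4f1 was larger in cortex, by 2.12 on the log2 scale (adjusted p = 0.00689), and no difference was detected for Pax2 (0.708). Penk had -1.54, -1.52 and -1.66, and Gabrd -1.34, -1.14 and -1.11. Akr1c18, a steroid-metabolizing reductase, was at -0.08 in cortex and 0.03 in hippocampus against 3.38 in striatum.

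**Figure D5:**
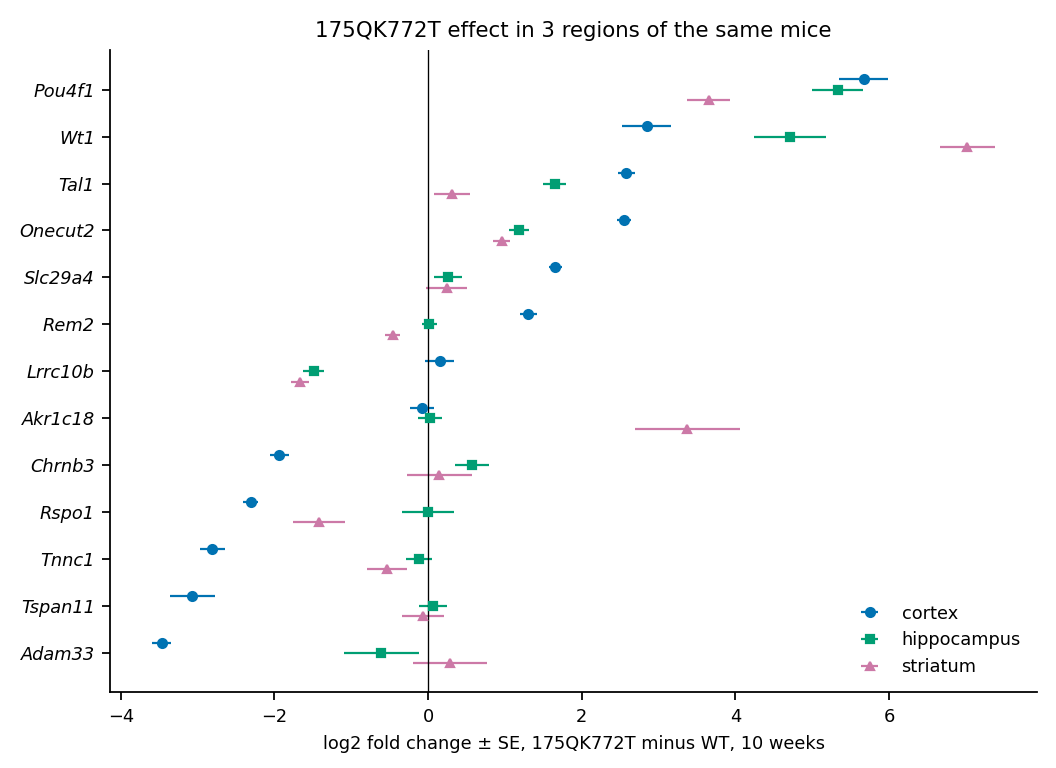
Log2 fold change of 175QK772T against WT with its standard error (horizontal axis) in the cortex (circles), hippocampus (squares) and striatum (triangles) of the same mice at 10 weeks, for genes whose effect differed between regions. Adam33 and Tspan11 lie far from 0 in cortex and near it in the other two regions, and Wt1 has its highest value in striatum (7.02).

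Genes close to the edited locus were examined, because a knock-in line can keep flanking sequence of its source strain. Of 183 tested genes within 10 Mb of Atxn1 on chromosome 13, 60 passed (32.8%), 28 higher and 32 lower, and on the rest of the chromosome 138 of 636 did (21.7%), 69 in each direction. Against 175Q 2 genes in the window and 9 on the rest of the chromosome passed. The part of flanking sequence in these calls was not tested.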

How the data were processed

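Gene-level read counts, raw and deposited by the authors in 1 table for each age, were the only unit used; the fold changes below were computed from them. Per the labels' protocols, RNA was extracted with TRIzol, polyadenylated RNA was captured with oligo-dT, and libraries were sequenced on a NovaSeq instrument in batches split by age. The submitters' processing notes name bcl2fastq 2.20.0, Trimmomatic 0.33, HISAT2 2.1.0, featureCounts of Subread 1.6.2 and the build GRCm38. For the counts of 10 weeks the Ensembl release 97 annotation was used, per the file headers, with a mapping quality of at least 10 and the reverse strand; these settings for the 26-week counts are not given in the sources used here. The descriptions of the 26-week libraries name the alleles 154Q and 154QKT, and the genotype field, which was used, names them 175Q and 175QK772T.

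Counts were tested with the edgeR quasi-likelihood test (edgeR 4.0.16, R 4.3.3) after the filterByExpr filter and TMM scaling, with sex as a term and the 12 cortex libraries of an age in 1 fit, which kept 20748 of 55573 genes at 10 weeks. Regions were compared over 36 libraries with mouse as a block, and ages over 24 libraries with an interaction term. Genes with a Benjamini-Hochberg adjusted p under 0.05 over all genes tested were called. Standard errors were derived from the fold change and its F value. Levels are CPM scaled by TMM. Named genes were Atxn1, the 12 largest rises and falls among called genes of at least 1 CPM without overlap between groups, up to 4 called genes with the smallest p from each of 39 lists (553 genes), and up to 6 genes each way from each other comparison, without predicted genes (Gm or Rik names), genes of chromosome Y, Xist and Tsix; a few others were named after their values were seen, and a few genes under this rule are not reported here. The members and lists were chosen with earlier results of these data known. Marker sums were compared with an exact permutation test over 70 assignments. On simulated counts for the comparison with WT, the test recovered 36 of 50 genes changed 1.25-fold, 40 of 50 changed 1.5-fold and all 50 changed 2-fold. Of 192 calls over 20748 genes 16 were false. Only genes averaging at least 1 CPM were changed, and no sex difference was simulated. Recovery was thus not tested for the 5612 genes under 1 CPM, nor with as many changed genes as in the real data. Alternatives were DESeq2 1.42.0, another scaling, no filter, no sex term, a replicate block, the genotypes compared alone, females alone and leaving out each library. The main fits assumed no pairing of mice by replicate number.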

Additional observations from a re-analysis of the deposited data

Results flagged for a closer look

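Single libraries stood apart for some genes: of 280 groups of 4 libraries examined, 22 had a highest or lowest value further from the others than the 95% limit of Dixon's test, which chance exceeds in about 1 group in 20. In 175QK772T replicate 4 the choroid plexus sum was 1460 CPM, with Ttr at 749 CPM, Slc4a5 at 7.88 CPM, Clic6 at 13.4 CPM and Sostdc1 at 3.37 CPM, each the highest of its group. In that library the blood-cell sum (165 CPM) was also the highest of the group, and Cacnb1 (107 CPM) the lowest. In 175QK772T replicate 1 Kcnj8 (2.60 CPM) and Rbpj (28.9 CPM) were low, and in replicate 3 Wfs1 (41.1 CPM) was high. In WT replicate 1 Pax2 (0.282 CPM), Rspo1 (24.7 CPM), Crh (7.95 CPM) and the leptomeningeal sum (893 CPM) were high and Olig1 (77.1 CPM) was low. In WT replicate 2 Ttr was high at 14.3 CPM. In WT replicate 3 Sfrp5 (0.438 CPM), Slc4a5 (0.0829 CPM), Rbpj (35.4 CPM) and Egr3 (153 CPM) were low and Clu (807 CPM) was high. In WT replicate 4 mt-Atp8 was high at 3.12 CPM.

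The log2 effect of 175QK772T differed between cortex and hippocampus for 39 of 164 named genes by a test of the difference. The 12 genes taken for this comparison and 3 others whose values in the 3 regions are given above are listed here. Cortex minus hippocampus was 1.39 for Onecut2, 1.54 for Dnah14, 1.45 for Slc29a4, 1.61 for Lrrc10b, 1.52 for Prph, 1.35 for Lct, 0.97 for Tal1 and 1.30 for Rem2. It was -2.83 for Adam33, -3.14 for Tspan11, -2.68 for Tnnc1, -3.35 for Hfe2, -2.44 for Chrnb3, -2.40 for Rspo1 and -0.76 for Lamp5. The call of Lct was lost with DESeq2 (adjusted p = 0.153) and when single libraries other than WT replicate 4 were left out (edgeR, 0.0674 to 0.0898).

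The effect also differed between cortex and striatum, for 53 of the 164 named genes, of which 14 are given. Cortex minus striatum was 2.12 for Pou4f1, 2.32 for Tal1, 1.77 for Lrrc10b, 2.14 for Tmem114, 1.75 for Rem2, 1.68 for Il17rc and 1.62 for Onecut2. It was -4.10 for Wt1, -3.69 for Adam33, -3.05 for Tspan11, -2.72 for Sytl1, -3.10 for Hfe2, -3.42 for Akr1c18 and -1.51 for Lamp5. For Lrrc10b, Tmem114, Il17rc and Akr1c18 the effect lay outside the cortex, where none of them passed.

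Between ages, the effect at 10 weeks minus that at 26 weeks was -1.49 for Twist1, -1.14 for Tal1, -2.30 for Dlx4, -1.22 for Tbx2, -0.94 for Plekha4 and -0.74 for Rflnb. Dlx4, a homeobox factor, rose by 1.02 at 10 weeks and 3.37 at 26 weeks. The calls of Twist1, Tal1, Tbx2, Plekha4 and Rflnb were each lost without most single libraries.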

How the results depend on the processing

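In the comparison with WT at 10 weeks, all 24 of the largest changes and Atxn1 kept their direction and their call under each alternative tried. The 24 were chosen from the same libraries as large called changes without overlap between groups, so that choice made a loss unlikely beforehand. Fewer genes passed among females alone (3176, of which 1299 were higher and 1877 lower), where fewer libraries were compared, and 4162 to 4944 passed when 1 library was left out. Of the other named genes none changed direction. The direct comparison with 175Q moved with the settings: 785 genes passed with DESeq2 (468 higher, 317 lower), 938 without the filter on low counts, 40 among females alone, and 34 to 255 when 1 library was left out. At 26 weeks 2707 genes passed with DESeq2, 3105 without the filter and 930 to 4641 with 1 library left out. The difference between cortex and hippocampus passed for 616 to 843 genes with 1 library left out, and that between cortex and striatum for 1567 to 1993. The difference between ages passed for 56 genes with DESeq2, 805 without the filter (701 higher, 104 lower), 7 without the sex term and 1 to 30 with 1 library left out. The causes of these shifts were not tested.

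Replicate numbers are shared between groups. Same-numbered 175QK772T and WT mice of 10 weeks had correlations of 0.10, -0.05, 0.02 and 0.30 in their deviations from the group means. None of the 4 correlated best with its own number. Replicate 1 alone did so for 175QK772T with 175Q at 10 weeks (0.22) and with WT at 26 weeks (0.19). So few mice cannot exclude a pairing by number, and none was assumed in the main fit. With a replicate block 4647 genes passed against WT at 10 weeks, 50 against 175Q and 1315 at 26 weeks. Sfrp5 at 26 weeks, at -0.66 with all libraries and not called, was 0.167 with the block and ran from -1.23 to 1.46 with 1 library left out; Sostdc1, at -1.28 and not called, ran from -1.83 to 0.953. The upper value of each came without the library labelled WT replicate 1. For the marker sums, leaving out each library was added after the data were seen: the exact permutation p over 35 assignments, at least 0.0286, was 0.0286 to 0.0571 for the striatal sum and 0.0286 throughout for the hippocampal sum, both lower in 175QK772T in all 8 settings. Adjusted over 9 measures these were 0.103 to 0.257, which says nothing of stability, since too few measures reached the smallest p for any to pass. Of the 39 HOX genes 35 had too few counts to be tested, and 14 had no count in WT or 175QK772T.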
